A study of Mus musculus with 8 samples.

Results

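The insulin-like growth factor (IGF) system was described through 8 genes of the 32285 in the count table: the ligand genes Igf1 and Igf2, the receptor genes Igf1r and Igf2r, and the binding protein genes Igfbp2, Igfbp3, Igfbp4 and Igfbp7. They were chosen by symbol, with earlier results of these data known, and all 8 were rows of the table. Single cells came from sorted lungs of 5-day-old wild-type C57BL6/J mouse pups, and all pups had been exposed before birth to lipopolysaccharide (LPS, a bacterial wall component that causes inflammation), on day 14 of gestation. Of the 8 libraries, 4 belonged to pups reared in 21% oxygen (air) and 4 to pups reared in 65% oxygen (hyperoxia), a model of bronchopulmonary dysplasia, a lung disease of babies born preterm. The lungs had been frozen with DMSO and serum, thawed and sorted for endothelial, epithelial and immune cells. The 11806 cells of the table carried no name that tied them to a library, so air and hyperoxia were not compared and both groups are described together as 1 pooled sample.

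IGF1 and IGF2 are small secreted hormones that drive growth and survival by binding the IGF1 receptor, a tyrosine kinase that signals through IRS adaptors, PI3 kinase and AKT. The product of Igf2r, the mannose 6-phosphate receptor, carries lysosomal enzymes and removes IGF2 from the cell surface. Secreted binding proteins hold the ligands in fluid and matrix, and proteases set them free. In the lung, mesenchymal cells are a known source of the ligands, and the axis takes part in the growth of alveoli and their vessels.

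Cells were placed in groups by transcripts of marker genes, counted as unique molecular identifiers (UMIs, each standing for 1 captured RNA molecule). The groups were type 1 alveolar cells (AT1, at least 3 UMIs of Rtkn2), type 2 alveolar cells (AT2, at least 3% of UMIs from Sftpc), endothelium (at least 2 UMIs of Cdh5 and Cldn5), alveolar macrophages (at least 2 of Ear1 and Marco), interstitial macrophages (at least 5 of C1qa and C1qb), monocytes (at least 3 of Ly6c2 and F13a1), T cells (at least 2 of Cd3e and Trac) and cells with at least 10 UMIs of Dppa5a, a gene of pluripotent cells. Endothelium was divided in order, by at least 2 UMIs at each step, into general capillary (Gpihbp1, Plvap and Aplnr), Car4 capillary (Car4 and Ednrb) and arterial cells (Gja5 and Bmx). The rest were called remaining endothelium. Where a gate names more than 1 gene, their UMIs were summed. The arterial gate was also passed by 17 cells of the general capillary gate and 8 of the Car4 capillary gate. The remaining 6795 cells were split further by the same kind of rule. Levels are CPM, the UMIs of a gene summed over a group and scaled to a fixed total of UMIs, and brackets give exact 95% intervals that cover counting error only.

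The cells fell into 8 runs of barcodes, stretches of the table within which barcodes stood in alphabetical order. A run is no known replicate of either oxygen group, so its values are given singly or as a range. Cells had 1055 to 39865 UMIs, with a median of 4425, and 12 barcodes occurred in more than 1 run. In all, 282 cells passed more than 1 gate and went to the first. The gates were checked against other markers. In the AT1 group Ager, which defines these cells, stood at 3474 CPM, but 19 of its 124 cells had fewer than 2 Ager UMIs. The interstitial gate held C1qc at 797 CPM, while only 5 of its 366 cells had a UMI of Lyve1 or Folr2, which mark the perivascular kind. The 301 cells of the Dppa5a group carried the pluripotency gene Pou5f1 at 418 CPM and the leukocyte gene Ptprc at 17.2 CPM. The labels name no such cells, and 253 of them lay in runs 4, 5 and 6 and none in run 1. Mesenchymal cells were nearly absent: 7 cells passed that gate. In arterial cells Col1a1, Dcn, Lum and Pdgfra were all at 0 UMIs, while Col1a2 and Col3a1 had 22 and 19, and neutrophil markers reached 12010 CPM.

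Among the 12 groups of the main gates, each member had 20 CPM or more in a group of at least 20 cells. In 7 of the 8 the leading group reached at least 4 times the level of all remaining cells together, called 4-fold here. Among all genes with 20 CPM in a group 34.4% did so. As the members were picked with earlier results known, shares over all genes are given for scale and are no test. Arterial cells led for Igf2, Igfbp3 and Igfbp4, Car4 capillary cells for Igfbp7, general capillary cells for Igf2r, AT1 cells for Igf1r, interstitial macrophages for Igf1 and the Dppa5a group for Igfbp2. The endothelial groups therefore led for 5 of the 8 genes among the main gates, where they led for 37.4% of all genes with 20 CPM in a group. The 21 ciliated cells, found outside these gates, had a higher Igf2r level than general capillary cells. A summed level does not say whether more cells or more RNA per cell lies behind it, so shares of cells are given where the results turn on them.

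**Figure D1:**
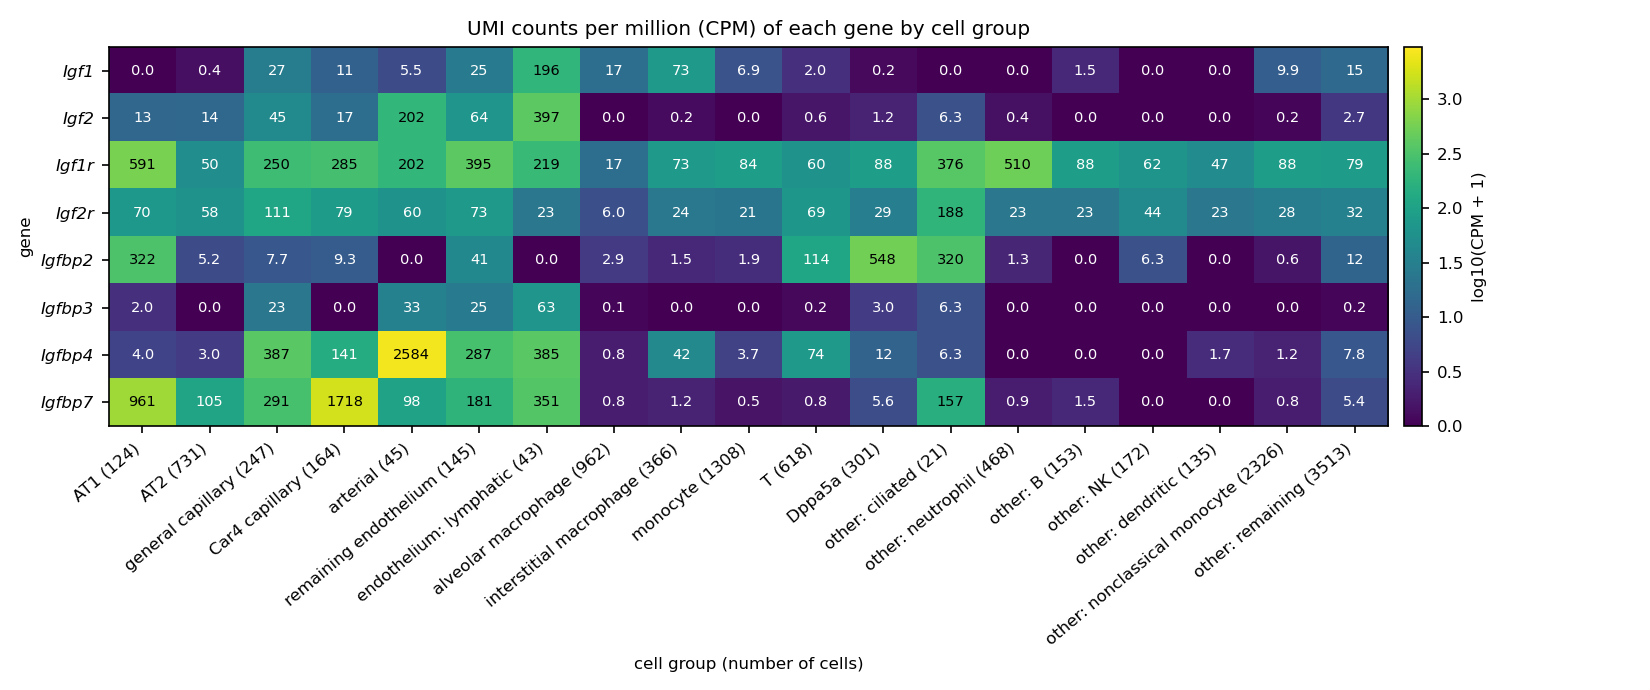
Levels of the 8 genes (rows) in each cell group (columns, number of cells in brackets), with the CPM printed in each field and the colour showing log10(CPM + 1). Igfbp4 was brightest in arterial cells at 2584 CPM, Igfbp7 in Car4 capillary and AT1 cells at 1718 and 961 CPM, and Igfbp2 in the Dppa5a group at 548 CPM.

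Igf1 (chr10:87858265-87937042, plus strand) encodes the main postnatal growth factor of the axis. Its transcripts stood at 73.5 CPM in interstitial macrophages (65.4 to 82.3), from 298 UMIs in 109 of 366 cells, a level 7.91-fold that of the remaining cells (6.88 to 9.08). General capillary cells followed at 27.5 CPM, remaining endothelium at 25.3 and alveolar macrophages at 16.8, and the intervals of these neighbours overlapped in turn. Only the first step in that order, from interstitial macrophages to general capillary cells, was free of overlap among those 4. Most endothelial Igf1 UMIs lay in lymphatic cells, described below, and the other endothelial cells had 7.54 CPM, below alveolar macrophages. Monocytes had 6.86 CPM, T cells 2.02, AT2 cells 0.400 and the Dppa5a group 0.233 CPM. AT1 cells had 0 UMIs, where a floor of 3 counts would be 2.97 CPM. Neutrophils also had 0 UMIs, in 468 cells.

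Against alveolar macrophages the interstitial level was 4.37-fold higher (3.57 to 5.37), and against monocytes 10.7-fold higher (8.31 to 13.9). By run, interstitial macrophages had 52.8 CPM in run 1, 41.9 in run 3, 146 in run 4, 88.2 in run 5, 94.3 in run 6 and 107 in run 7. Alveolar macrophages ranged from 5.93 to 58.3 CPM over 8 runs, with a median of 13.6. The interstitial level was the higher in 6 of 6 runs against either group, although the highest alveolar run lay above the 2 lowest interstitial runs. The difference also held in the share of cells at equal depth. After each cell was thinned to 2000 UMIs, 13.8% of interstitial macrophages had an Igf1 UMI (10.4% to 17.8%), against 2.31% of alveolar macrophages (1.46% to 3.48%). Unthinned shares were 29.8% and 7.90%, with median depths of 7683.5 and 7506.5 UMIs. Without run 3 or run 6 the ratio to alveolar macrophages was 3.97 or 3.87 and no longer reached 4-fold.

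Igf1 was uneven within the interstitial gate. The 5 cells with Lyve1 or Folr2 held 25 of its UMIs, or 639 CPM (414 to 943), and 20 of those came from a single cell. Without run 6, 3 such cells were left, at 209 CPM. The other 361 cells stood at 68.0 CPM. Cells with a UMI of Adamdec1, a metalloprotease gene of tissue macrophages, had 98.1 CPM against 69.0 CPM without it, a ratio of 1.42 (1.05 to 1.89).

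Within endothelium, Igf1 was higher in lymphatic cells. The 43 endothelial cells with at least 2 UMIs of Mmrn1 and Prox1, genes of lymphatic vessels, had 196 CPM (135 to 273), against 7.54 CPM in the other 558, a ratio of 25.9 (14.1 to 49.5). Of the 43, 20 came from run 7 and held 22 of the 34 lymphatic Igf1 UMIs. Without run 7 the lymphatic level was 108 CPM against 6.45 CPM, a ratio of 16.8. No Igf1 UMI was found in the 112 endothelial cells with at least 2 UMIs of Vwf, a gene of large vessels.

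Igf2 (chr7:142650766-142666816, minus strand) is the imprinted fetal ligand, transcribed from the paternal copy in most tissues. It reached 202 CPM in arterial cells (142 to 279), from 37 UMIs in 13 of 45 cells, 59.5-fold the level of the remaining cells (41.0 to 84.2). With cells thinned to 2000 UMIs that fold was higher, 6.52 on the log2 scale against 5.90. The 2 runs with at least 10 arterial cells gave 179 and 171 CPM. Remaining endothelium followed at 64.3 CPM and general capillary cells at 44.7 CPM, with overlapping intervals. Car4 capillary cells had 17.1 CPM, AT2 cells 14.0 and AT1 cells 12.9, again overlapping. Alveolar macrophages and monocytes had 0 UMIs, with exact upper limits of 0.428 and 0.329 CPM.

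Lymphatic cells held Igf2 at 397 CPM (309 to 502), with 22 of 43 cells positive, against 26.2 CPM in the other endothelial cells, a ratio of 15.2 (10.6 to 21.8). Without run 1 they had 231 CPM against 28.7 CPM, a ratio of 8.04. With lymphatic cells left out, general capillary cells kept only 7 Igf2 UMIs, or 6.66 CPM, and remaining endothelium 5 UMIs, or 13.2 CPM. No arterial cell passed the lymphatic gate. The arterial level was 4.53-fold above general capillary cells (2.89 to 7.03) with all cells, 30.4-fold with lymphatic cells left out, 13.1-fold without run 1 and 3.13-fold without run 6. In the 7 mesenchymal cells Igf1 stood at 116 CPM and Igf2 at 483 CPM, from 6 and 25 UMIs.

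**Figure D2:**
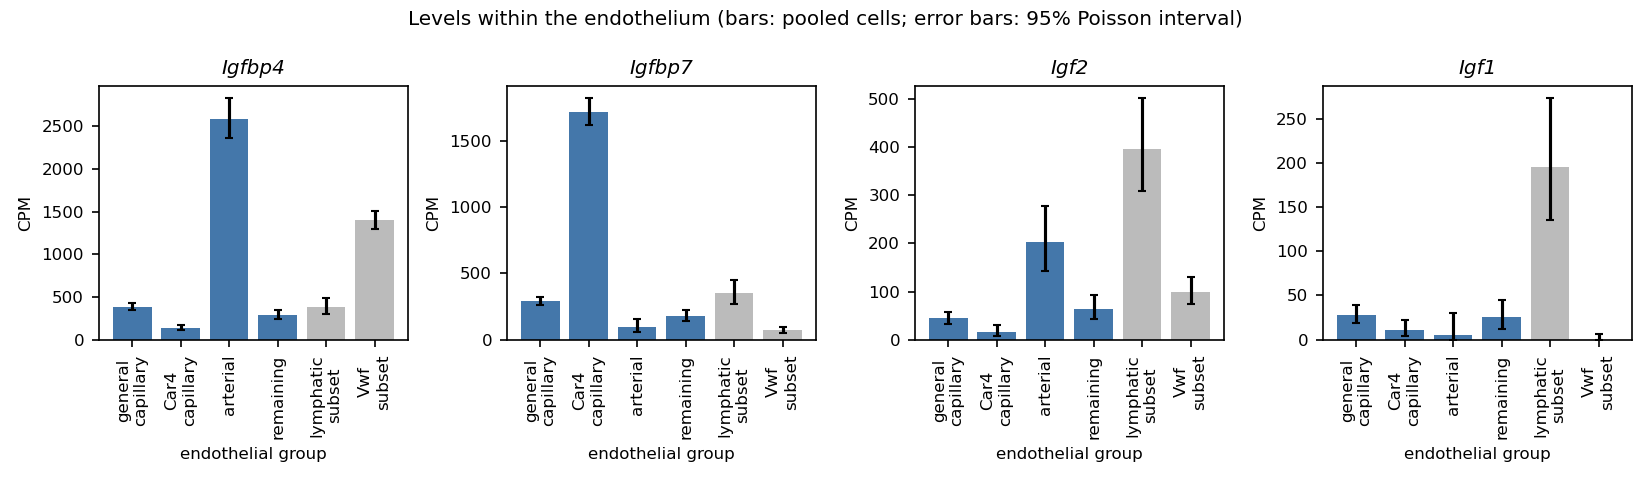
Levels of Igfbp4, Igfbp7, Igf2 and Igf1 in the endothelial groups (blue bars) and in the lymphatic and Vwf subsets of the same cells (grey bars), in CPM with exact 95% Poisson intervals. Igfbp4 peaked in arterial cells and Igfbp7 in Car4 capillary cells, while Igf2 and Igf1 were highest in the lymphatic subset at 397 and 196 CPM.

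Igf1r (chr7:67952827-68233668, plus strand), the signalling receptor, was found in every group and differed widely in level. AT1 cells had 591 CPM (544 to 640), with 103 of 124 cells positive, 6.54-fold the level of the remaining cells (6.0 to 7.11). Remaining endothelium had 395 CPM, Car4 capillary cells 285, general capillary cells 250 and arterial cells 202, and the last 3 overlapped in turn. The lowest level was 17.2 CPM, in alveolar macrophages (14.5 to 20.2). AT1 cells exceeded AT2 cells, at 49.7 CPM, by 11.9-fold (10.2 to 13.8). In single runs AT1 cells had 787, 608 and 389 CPM, all above the AT2 range of 24.4 to 82.8 CPM. AT1 cells with at least 2 Ager UMIs had 732 CPM, against 176 CPM in those without. With all gate thresholds doubled, the AT1 fold was 3.30 on the log2 scale, against 2.71.

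Among leukocytes the receptor transcript stood apart in neutrophils. They had 510 CPM (481 to 540), 6.08-fold above monocytes at 83.9 CPM (5.57 to 6.63). Their 6 runs ranged from 407 to 598 CPM and lay above monocytes of the same run in 6 of 6. At 2000 UMIs, 54.0% of neutrophils and 10.4% of monocytes had an Igf1r UMI, against 2.00% of alveolar macrophages. Monocytes exceeded alveolar macrophages in 8 of 8 runs, and interstitial macrophages did so by 4.25-fold (3.48 to 5.22) in 6 of 6 runs. The 21 ciliated cells had 376 CPM (287 to 484).

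**Figure D3:**
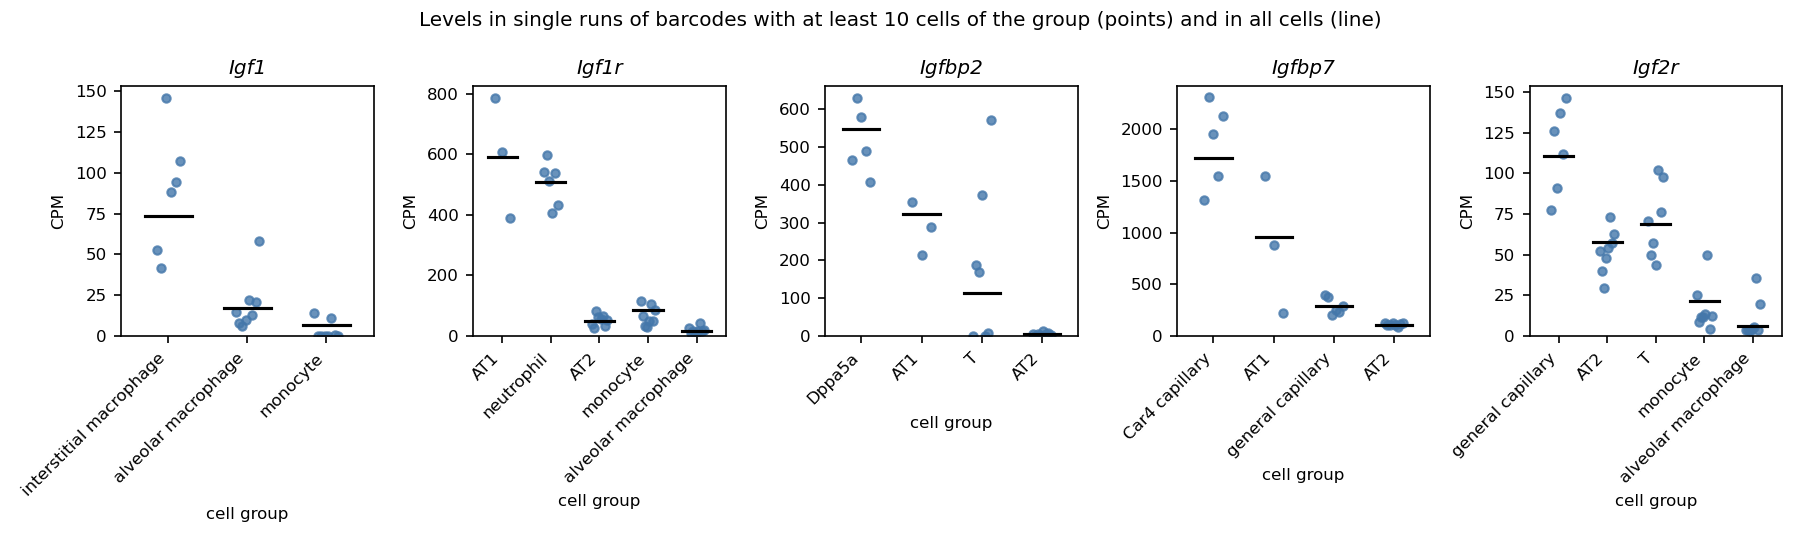
Levels in single runs of barcodes with at least 10 cells of the group (points) and in all cells of the group (black line), in CPM, for Igf1, Igf1r, Igfbp2, Igfbp7 and Igf2r. Interstitial macrophages lay above alveolar macrophages for Igf1 in 6 of 6 runs, neutrophils above monocytes for Igf1r in 6 of 6, and the T group ranged from 0 to 572 CPM for Igfbp2.

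Igf2r (chr17:12682406-12769664, minus strand) had the flattest pattern of the 8 by fold, and was the member that did not reach 4-fold. General capillary cells led among the main gates at 111 CPM (92.5 to 132), 3.50-fold the level of the remaining cells (2.91 to 4.18). Without run 1 the fold was 4.25 and without run 6 it was 4.05. The 21 ciliated cells had more, 188 CPM (127 to 269), from 30 UMIs in 10 cells. The next 6 groups of the main gates, Car4 capillary, remaining endothelium, AT1, T, arterial and AT2 cells, ranged from 79.1 down to 57.5 CPM, each overlapping its neighbour. Monocytes had 21.3 CPM and alveolar macrophages 6.03 CPM. The lower monocyte level was seen run by run: AT2 cells exceeded monocytes in 8 of 8 runs and T cells did in 7 of 7. Low levels were not confined to myeloid groups, with 23.1 CPM in B cells and 29.3 CPM in the Dppa5a group.

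Within the myeloid groups Igf2r was higher in cells with at least 3 UMIs of Saa3, Arg1 and Inhba, genes of an acute inflammatory response, arginine breakdown and activin. Among interstitial macrophages, the 44 such cells had 81.4 CPM (64.5 to 101), against 5.84 CPM in the other 322 (3.46 to 9.22), a ratio of 13.9 (8.28 to 24.7). Of these 44 cells, 21 passed more than 1 of the main gates, against 37 of the other 322. In all, 56 cells passed both the interstitial and the monocyte gate. Among monocytes, the 78 such cells had 87.6 CPM against 13.03 CPM, a ratio of 6.72 (5.16 to 8.74). Nonclassical monocytes showed 79.7 against 24.7 CPM. The rest of the ungrouped cells, which no gate identified as myeloid, showed 91.5 against 20.8 CPM. Igf2r was thus higher with the gate in each of these 4 groups, with intervals that did not overlap.

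Igf1 did not follow the same gate in every group. It was higher with the gate in monocytes, at 46.6 against 1.90 CPM (ratio 24.5, 14.4 to 43.5), and in nonclassical monocytes, at 86.0 against 5.61 CPM. In interstitial macrophages it was lower with the gate, at 38.1 against 84.6 CPM. Alveolar macrophages had 13 gated cells, at 74.5 against 15.2 CPM. Of the gated monocytes, 69 of 78 lay in runs 1 and 6, and all 44 gated interstitial macrophages did. Gated cells were also deeper, with median UMIs of 14971.5 against 5649 in monocytes and 22374 against 7037 in interstitial macrophages. At 2000 UMIs per cell 15.9% of gated (6.64% to 30.1%) and 0.962% of other interstitial macrophages had an Igf2r UMI, and within runs 1 and 6 taken singly the gated cells had the higher Igf2r level in 2 of 2. Without run 1, Igf2r stood at 51.7 against 6.30 CPM in interstitial macrophages and at 92.5 against 12.7 CPM in monocytes, and Igf1 in gated monocytes at 18.8 CPM. Without run 6 the Igf2r ratio in interstitial macrophages was 28.8 and the Igf1 ratio in monocytes 62.5.

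**Figure D4:**
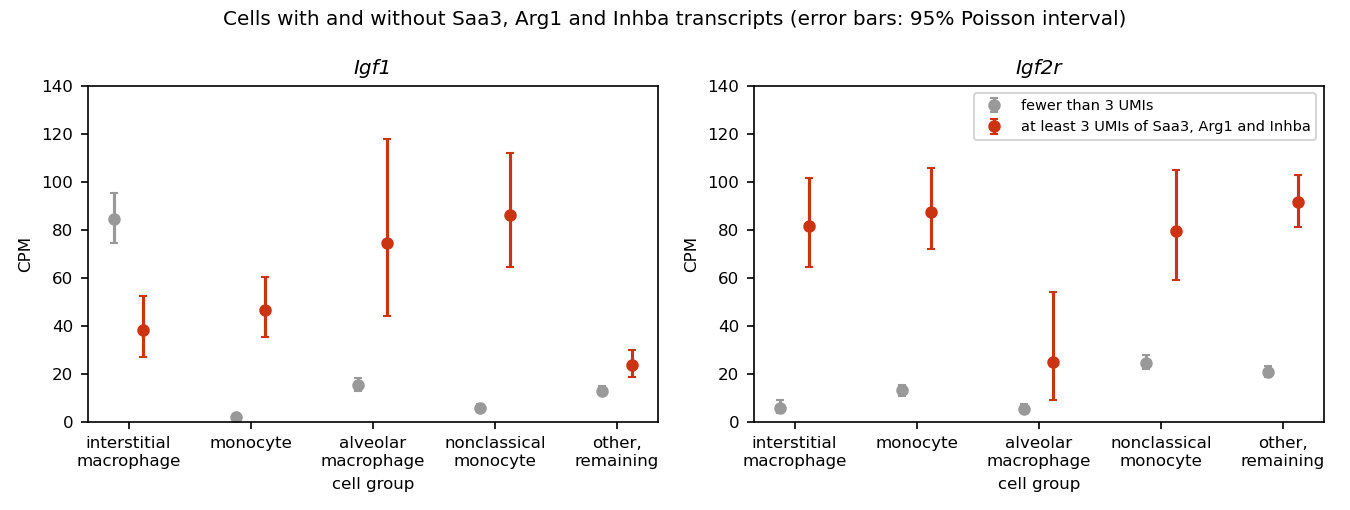
Igf1 and Igf2r in CPM in myeloid groups and in the rest of the ungrouped cells. Each was split by at least 3 UMIs of Saa3, Arg1 and Inhba (red) or fewer (grey), with exact 95% Poisson intervals. Igf2r was higher in red in each group, whereas Igf1 was lower in red in interstitial macrophages, at 38.1 against 84.6 CPM.

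Igf2r shares 28354 bases with Airn, the long noncoding RNA on the opposite strand whose transcription silences the paternal Igf2r copy. The handling of strand in the counting is not given in the sources used here, so reads of the shared stretch cannot be told apart with certainty. Airn had 5992 UMIs against 2532 for Igf2r, a ratio of 2.37 (2.26 to 2.48). The ratio was 7.18 in arterial cells, 6.81 in remaining endothelium, 5.58 in AT1 cells and 3.4 in general capillary cells. It was 1.64 in monocytes, 1.00 in alveolar macrophages and 0.333 in neutrophils (0.180 to 0.587). In gated and other monocytes it was 1.66 and 1.63, and Airn was 6.85-fold and Igf2r 6.72-fold higher with the Saa3 gate. In interstitial macrophages it was 1.13 and 2.22, with Airn at 91.7 against 12.97 CPM, a 7.07-fold difference beside the 13.9-fold one of Igf2r. Malat1, a nuclear RNA, moved with the same divide between groups, at 32274 CPM in AT1 cells and 32779 in Car4 capillary cells against 7419 in alveolar macrophages; its part in the ratio was not tested. Igf1os and Igf2os, antisense to the ligand genes, had 39 and 4 UMIs in all cells. Opposite Igfbp7, Gm34648 had 3 UMIs and Polr2b, which shares 85 bases with it, 2304.

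**Figure D5:**
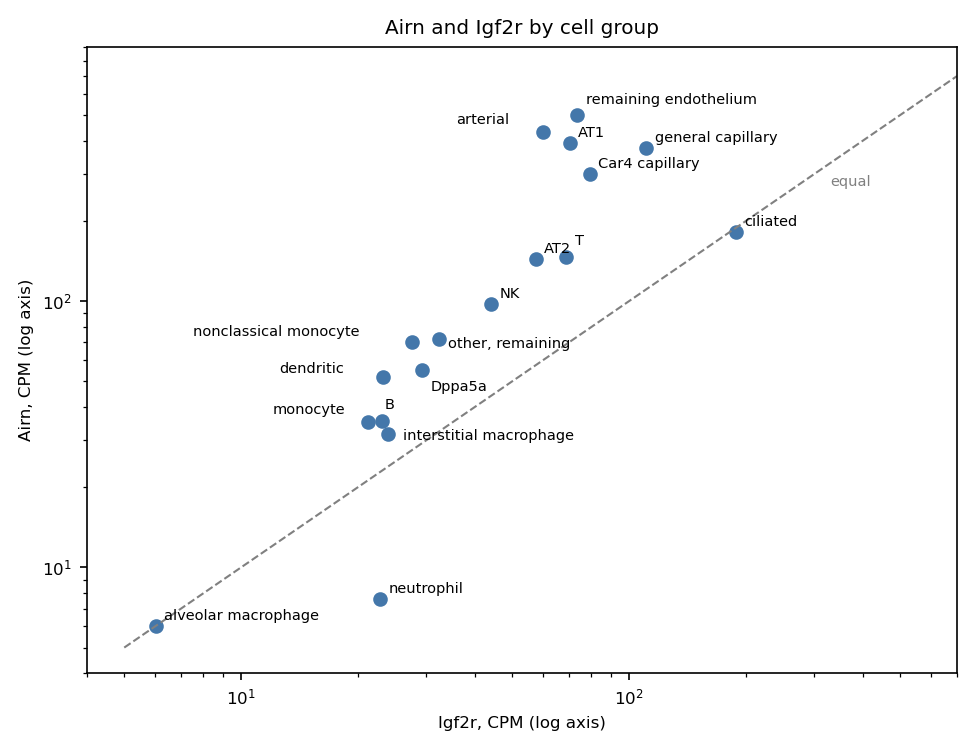
Airn against Igf2r by cell group, both in CPM on log axes, with the dashed line marking equal levels. Most groups lay above the line, alveolar macrophages and ciliated cells lay near it, and neutrophils lay below it with a ratio of 0.333.

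Igfbp4 and Igfbp7 peaked in different endothelial groups, and for that reason the stretches around their starts are shown. Igfbp4 (chr11:99041244-99054392, plus strand) encodes a binding protein that withholds IGFs until it is cleaved by PAPP-A. Igfbp7 (chr5:77349240-77408041, minus strand) encodes a matrix protein of vessels that binds IGFs weakly. The sequences are RefSeq promoters on GRCm38.p6, 250 bases before to 50 after the start, at chr11:99040994-99041293 (plus strand) and chr5:77407996-77408295 (minus strand). Capitals mark GGAAG, the core of ETS factor sites, and GGGCGG, the GC box, on either strand.
Igfbp4: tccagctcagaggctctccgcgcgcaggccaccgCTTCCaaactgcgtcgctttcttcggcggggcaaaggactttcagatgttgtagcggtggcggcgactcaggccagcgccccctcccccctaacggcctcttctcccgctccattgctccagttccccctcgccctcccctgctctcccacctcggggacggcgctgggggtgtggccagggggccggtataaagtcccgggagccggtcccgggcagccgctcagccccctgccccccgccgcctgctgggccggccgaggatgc
Igfbp7: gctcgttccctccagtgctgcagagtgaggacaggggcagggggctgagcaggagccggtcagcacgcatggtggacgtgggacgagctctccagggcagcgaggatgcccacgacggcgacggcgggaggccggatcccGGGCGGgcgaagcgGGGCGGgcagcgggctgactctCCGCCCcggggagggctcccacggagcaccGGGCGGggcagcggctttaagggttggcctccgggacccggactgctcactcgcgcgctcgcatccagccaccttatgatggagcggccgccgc
The Igfbp4 stretch held 1 GGAAG and 0 GGGCGG, and the Igfbp7 stretch 0 GGAAG and 4 GGGCGG. Of 32851 mouse promoters of the same length, 71.4% held GGAAG and 35.7% held GGGCGG. Both were rich in CpG, with 27 and 33 CpG pairs and 71.3% and 73.3% G and C. These are matches of letters and no evidence of binding.

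Igfbp4 stood at 2584 CPM in arterial cells (2357 to 2828), with 41 of 45 cells positive, 133-fold the level of the remaining cells (119 to 147). General capillary cells had 387 CPM, remaining endothelium 287 and Car4 capillary cells 141, with no overlap between neighbours in this order. The 2 runs with enough arterial cells gave 4463 and 3475 CPM, both above general capillary cells of the same run. Igfbp7 ran the other way. Car4 capillary cells had 1718 CPM (1618 to 1822), with 141 of 164 cells positive, 61.5-fold the level of the remaining cells (57.1 to 66.1). General capillary cells had 291 CPM, remaining endothelium 181 and arterial cells 98.4, where 18 UMIs were found.

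In single runs Igfbp7 in Car4 capillary cells was 1313 CPM in run 1, 2307 in run 4, 1955 in run 5, 1548 in run 6 and 2131 in run 7. General capillary cells ranged from 203 to 393 CPM over 6 runs, so the groups did not overlap. The ratio was 5.90 (5.22 to 6.68). Igfbp4 was lower in Car4 than in general capillary cells by 2.74-fold (2.18 to 3.47) and in 4 of 5 runs, the exception being run 5 with 678 against 504 CPM. With cells that pass 1 gate only, the Igfbp4 ratio was 11.3, and without run 5 it was 4.43.

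The difference between arterial and Car4 capillary cells was also visible cell by cell. Of 419 endothelial cells thinned to 2000 UMIs, 30.1% had Igfbp4 alone, 30.5% had Igfbp7 alone, 7.40% had both and 32.0% had neither. Among arterial cells 30 of 35 had Igfbp4 alone, and among Car4 capillary cells 84 of 107 had Igfbp7 alone. Of 199 general capillary cells, 74 had Igfbp4 alone, 29 had Igfbp7 alone, 21 had both and 75 had neither. Endothelial cells with at least 2 UMIs of Vwf showed Igfbp4 at 1399 CPM against 201 CPM without it, a ratio of 6.95 (6.14 to 7.89). Igfbp7 in the same split was 69.9 CPM with Vwf and 799 CPM without it, 11.4-fold higher without (8.29 to 16.2). Neutrophils, whose markers were found in the arterial group, had 0 Igfbp4 UMIs in 468 cells.

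Outside endothelium, the pair parted again. Igfbp7 was high in AT1 cells, at 961 CPM (901 to 1023), and 9.13-fold lower in AT2 cells at 105 CPM. The AT1 level rested on cells with Ager: 1279 CPM with at least 2 Ager UMIs and 23.5 CPM without. AT1 runs differed widely, with 1552 CPM in run 1, 881 in run 6 and 221 in run 7. Leukocytes had almost none, at 1.23 CPM or less in macrophages, monocytes and T cells. At 2000 UMIs the share of cells with an Igfbp7 UMI was 84.1% in Car4 capillary cells and 0.0781% in monocytes, with median depths of 2493.5 and 5913 UMIs. Igfbp4, in contrast, was present in T cells at 73.7 CPM and interstitial macrophages at 42.2 CPM, but at 0.812 CPM in alveolar macrophages. The T cell level ranged from 23.8 to 301 CPM over 7 runs and exceeded monocytes in 7 of 7. Interstitial macrophages lay 52.0-fold above alveolar macrophages (24.7 to 131) and 11.5-fold above monocytes (8.17 to 16.7). Interstitial cells without the Saa3 gate had 51.9 CPM, and those with it 11.3 CPM.

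Igfbp2 (chr1:72824503-72852474, plus strand) encodes a binding protein made widely in fetal tissue. The Dppa5a group had 548 CPM (526 to 571), with 244 of 301 cells positive, 30.9-fold the level of the remaining cells (28.8 to 33.0). Its 5 runs lay between 408 and 631 CPM. AT1 cells followed at 322 CPM (288 to 359), with 356 CPM in run 1, 213 in run 6 and 289 in run 7. The T group came next at 114 CPM. Remaining endothelium had 41.3 CPM, from 18 UMIs in 5 cells, and the 21 ciliated cells had 320 CPM. The other groups of the main gates were under 10 CPM.

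The T cell value rested on a few cells with Dppa5a. Of its 564 UMIs, 558 came from 23 cells that also passed the Dppa5a gate, which had a median of 31126 UMIs and 821 CPM. The 567 T cells with no Dppa5a UMI had 1.5 CPM, from 6 UMIs. The 595 T cells below the Dppa5a gate had a median of 4888 UMIs. Of the 23, 1 was among the 193 cells with the highest doublet scores, and whether the 23 were doublets was not tested. In AT1 cells Igfbp2 was lower where Dppa5a was missing: the 101 with no Dppa5a UMI had 254 CPM (218 to 295) and the 23 with one had 461 CPM (391 to 540). AT1 cells with and without Ager had 301 and 383 CPM. Of cells with no Dppa5a UMI, the 94 with Ager had 275 CPM (235 to 319) and the 7 without Ager had 0 UMIs, which allows up to 59.4 CPM. AT1 cells exceeded AT2 cells, at 5.19 CPM, by 62.0-fold (41.6 to 96.4). Without Dppa5a UMIs in the other groups, the fold of the Dppa5a group was 6.89 on the log2 scale, against 4.95. With cells that pass 1 gate only it was 6.12, and with doubled gates 5.57.

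Igfbp3 (chr11:7206086-7213923, minus strand) encodes the main IGF carrier of blood. It was scarce, with 65 UMIs in all cells. Arterial cells had 32.8 CPM from 6 UMIs (12.0 to 71.4), remaining endothelium 25.3 and general capillary cells 23.2 CPM, and the 3 intervals overlapped. With lymphatic cells left out, remaining endothelium had 1 UMI, or 2.64 CPM. The fold of 42.7 in arterial cells had an interval from 15.1 to 98.6. General capillary cells took 19 of their 27 UMIs from run 5, and 17 came from a single cell. Car4 capillary cells had 0 UMIs. With a floor of 3 counts in place of 0, they lay 4.99-fold below general capillary cells, and the exact interval began at 3.78. The same floor gave 3.23-fold when thinned and 1.57-fold without run 5, where general capillary cells kept 8 UMIs at 8.09 CPM. The lymphatic subset had 63.3 CPM against 14.6 CPM, a ratio of 4.32 (1.97 to 8.76). All 11 of its UMIs lay in run 7, with 9 in a single cell, and without that run it had 0.

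Pairs of like groups were set side by side for all 8 genes. Between interstitial and alveolar macrophages 3 of the 4 members with 20 CPM in either were at least 4-fold higher in the interstitial group and 0 were lower, where 4.25% of all genes were higher and 3.6% lower. The 3 were Igf1, Igf1r and Igfbp4, and Igf2r lay just under the limit at 3.97. Of the 97 interstitial Igf2r UMIs, 79 came from the 44 cells with the Saa3 gate. The other 322 cells had 5.84 CPM of Igf2r, against 6.03 CPM in alveolar macrophages. Against monocytes, Igf1 and Igfbp4 were higher in interstitial macrophages, 2 of 4 members where 1.68% of all genes were higher and 2.38% lower. Between AT1 and AT2 cells 3 of 4 members, Igf1r, Igfbp2 and Igfbp7, were higher in AT1 and 0 lower, where 9.13% of all genes were higher and 3.49% lower. Igf2r differed by 1.22-fold there (0.930 to 1.59).

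Between Car4 and general capillary cells 1 of 7 members was higher (Igfbp7) and 1 lower (Igfbp3, under the limits without run 5), where 2.87% of all genes were higher and 3.78% lower. The Igfbp3 call used a floor of 3 counts, and its exact interval began at 3.78-fold, under the limit. Between arterial and general capillary cells 2 of 7 were higher (Igf2 and Igfbp4), where 5.3% of all genes were, and 1 lower (Igf1), where 5.11% were. The Igf1 ratio of 5.03 rested on 1 arterial UMI and its interval ran from 0.840 to 205. The general capillary level included lymphatic cells, which held 34 Igf1 UMIs against 17 in all other endothelial cells. Without run 6, only 1 of these 3 kept a 4-fold difference. Igf1r differed by 1.14-fold between the capillary groups (0.944 to 1.38).

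The wider pathway was read from a list of 44 genes, all in the table. Of these, 34 had 20 CPM in a group and 17 also had a leading group past 4-fold, where 34.4% of all genes with 20 CPM did. An endothelial group led for 14 of the 17, where one did for 41.2% of all genes past 4-fold. The list was also chosen with earlier results known, so these shares are no test. Among regulators and partners 8 of 21 passed, of 13 with 20 CPM. Leading groups are those of the main gates. Htra1, a protease that cleaves binding proteins, led in arterial cells at 486 CPM, Igfbp5 in arterial cells at 213 CPM, below its 1267 CPM in 21 ciliated cells (1098 to 1454), and Stc1, whose product inhibits PAPP-A, in arterial cells at 27.3 CPM from 5 UMIs. Irs1, the receptor's adaptor, led in Car4 capillary cells at 102 CPM. Grb10, an imprinted inhibitor of the receptor, led in general capillary cells at 219 CPM. Ghr, the growth hormone receptor, reached 946 CPM in remaining endothelium. The RNA-binding protein genes Igf2bp1 and Igf2bp2 led in the Dppa5a group at 155 CPM and in AT1 cells at 140 CPM.

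Of the imprinted or neighbouring genes 7 of 9 passed the same limits, which were the 7 with 20 CPM in a group. Among all genes with 20 CPM in a group 34.4% passed. H19, the noncoding neighbour of Igf2, had 402 CPM in remaining endothelium, but 47.5 CPM (28.2 to 75.1) with lymphatic cells left out. The 43 lymphatic cells had 2467 CPM of H19 (2239 to 2712), against 43.5 CPM in the other endothelial cells. Of their 429 UMIs, 161 came from a single cell, and 27 of the 43 cells had a UMI. The 7 mesenchymal cells had 2763 CPM of H19, from 143 UMIs, 104 of them in a single cell. Airn had 501 CPM in remaining endothelium and 563 without lymphatic cells. Mest led in Car4 capillary cells at 518 CPM, Peg3 and Plagl1 in general capillary cells at 338 and 72.2 CPM, and Cdkn1c, a cell cycle inhibitor, in arterial cells at 175 CPM. Ciliated cells had more Cdkn1c, at 3179 CPM, and Plagl1 at 81.5 CPM. Dlk1 was the exception, led by AT2 cells at 288 CPM. Among the signalling genes, all 14 reached 20 CPM and 2 passed 4-fold, a smaller share than that of all genes. Foxo1, a transcription factor that insulin and IGF signalling holds out of the nucleus, passed 4-fold and led in arterial cells at 295 CPM.

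Genes most like each member were found by the Pearson correlation of log2(CPM + 1) over 18 groups, among 12283 genes. The groups share libraries and differ in depth, so the values are descriptions. Closest to Igf1 were Adgrl3 (r = 0.86), Kctd12b (0.84) and Lgals8 (0.84). Antxr1 (0.97), Efnb2 (0.97) and Atp8b1 (0.95) were closest to Igf2. Igf1r was nearest to Zfp397 (0.84), Mcu (0.83) and Zfp236 (0.80), and Igf2r to Ssbp3 (0.86), Airn (0.86) and Cbx6 (0.85). Sox2, a stem cell and airway factor, was closest to Igfbp2 (0.97), before Dzip1 (0.95) and Gsta4 (0.95). Igfbp3, whose values rest on only 65 UMIs, was nearest to Tll1 (0.93), the arterial factor Hey1 (0.93) and Lama4 (0.92). Igfbp4 was nearest to Iigp1 (0.90), Mmp2 (0.89) and Fbln2 (0.89), and Igfbp7 to Timp3 (0.98), Samd4 (0.97) and Col4a2 (0.97). Between members the highest value was 0.85, for Igf2 and Igfbp7, and the lowest was -0.28, for Igf1 and Igfbp2. Igfbp4 and Igfbp7 had 0.56.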

How the data were processed

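Single-cell libraries were made with a droplet 3' kit, per the labels. The authors deposited 1 table of raw UMI counts, 32285 genes by 11806 cells and 77020720 UMIs. Per the submitters' processing notes, Cell Ranger 1.3.1 and mm10 were used, and the handling of strand and introns is not given in the sources used here. Column names held a barcode and 1 of 7 suffixes, and 0 of 8 library labels matched a column. The planned edgeR test of hyperoxia against air was therefore not run, and no p-value is given.

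The members, gates and lists were chosen with earlier results of these data known. Named genes were the members, the listed pathway genes past 4-fold, overlapping genes and the 3 genes most like each member; 1 pathway gene is not reported here. Counts were summed per group with Python 3.11.15 and scipy 1.17.1, with exact Poisson or binomial 95% intervals. Where a group had 0 counts, a floor of 3 counts was used. A member was called at 4-fold and 20 CPM. Shares were recomputed after thinning to 2000 UMIs, which left out 1423 shallower cells of the 11806. All cells were kept; an alternative left out the 193 cells with the highest Scrublet scores (scanpy 1.11.5, 0.8% per 1000 cells). Free RNA was not subtracted. Gene positions come from GENCODE vM21 and promoters from RefSeq, where 8 of 8 members matched. The fold calculation was tested on simulated data. Alternatives changed the gates, the weighting of cells, the depth, the doublets, the Dppa5a cells and the runs. Leaving out lymphatic cells or cells with Dppa5a, the Ager, Saa3 (nonclassical and ungrouped cells) and T splits, and subset values without single runs were chosen after seeing the data.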

Additional observations from a re-analysis of the deposited data

How the results depend on the processing

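The number of members whose leading group passed 4-fold was 7, and ranged from 7 to 8 when each run was left out. For pairs, the counts of members past 4-fold ranged without a run from 2 to 4 for interstitial against alveolar macrophages (3 with all cells), 2 to 3 for Car4 against general capillary cells (2), 1 to 4 for arterial against general capillary cells (3), 3 to 3 for AT1 against AT2 cells (3) and 2 to 2 for interstitial macrophages against monocytes (2). The Car4 count was 1 with cells thinned to 2000 UMIs, where Igfbp3 dropped out. The arterial count was 1 without run 6, where Igf1 and Igf2 dropped out. The arterial Igf1 ratio was 3.28 without run 1, and 1.95 without run 6 on a floor of 3 counts, against 5.03. The other 94 counts stayed within 1.5 times. Of the single values of members, 33 moved and 94 did not. The higher group of a pair changed in 5 of 395 member values, none of them past 4-fold. Igf2, under 20 CPM in AT1 and AT2 cells, was 1.91-fold higher in AT1 when thinned. Igfbp3 was also under the limits in the capillary pair without run 5, where the count kept 2 because Igfbp4 reached 4.43. Igfbp7 reached 4-fold lower in arterial than general capillary cells without run 3 (4.85) and with thinned cells (19.9), against 2.96.

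For 7 members the leading group was the same in every alternative that kept that group. For Igfbp2 this covered 15 alternatives, as the one without the Dppa5a group removed its leading group. For Igfbp3 the leading group was the same in 13 of 16, and differed with the mean of single cells, with thinned cells and without run 5. On the log2 scale the Igfbp3 fold fell from 5.42 to 3.89 with the mean of single cells and to 4.62 at the lowest without a run. The Igf1 fold was 3.58 with thinned cells, against 2.98. The causes were not tested. No paired analysis was possible because the columns of the table map to no library, so no replicate number could be used. Depth limits Igfbp3 (65 UMIs) and every arterial value (45 cells).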
